A study of Rattus norvegicus with 120 samples.

Results

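Maturation of the hippocampus over 6 days, from postnatal day 13 to postnatal day 19, was described in small RNA libraries of male Wistar rats that had no seizures induced. The libraries were chosen by their labels: they are all control rats of the acute and latent stages with counts, 38 of 114 libraries with counts and of 120 labelled in the series. Every rat, controls included, received LiCl, and on the next day controls received saline in place of pilocarpine, the muscarinic agonist that induces status epilepticus (SE) in the other rats. The injection was given at postnatal day 12 (infancy-onset arm) or 60 (adult-onset arm), so that infancy controls were sampled at day 13 (acute, 9 rats) and day 19 (latent, 10 rats) and adult controls at day 61 (acute, 9 rats) and day 67 (latent, 10 rats). Each library comes from the hippocampus of 1 rat, and collection of the entire structure from both hemispheres is stated for the chronic stage; in such tissue, fewer cells of a type and less RNA per cell cannot be told apart.

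MicroRNAs (miRNAs) are short RNAs that guide Argonaute proteins to messenger RNAs, mainly through the seed, the bases near the 5′ end that pair with the target, and lower the output of those messages. In the rodent brain the third postnatal week is a time of oligodendrocyte differentiation, the start of myelination and the pruning of synapses. miR-219 and miR-338 are needed for oligodendrocyte precursors to leave the cell cycle and mature, miR-29 is known as a miRNA that accumulates as neurons mature, and the let-7, miR-9, miR-124 and miR-128 groups make up much of the miRNA pool of neural tissue.

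The miRNAs on which the results turn are shown by their mature sequences from RefSeq (GRCr8), 5′ to 3′, with the seed (bases 2 to 8) in capitals. The first set rose more, or fell less, in infancy than in adult controls. The 3 miR-29 members share 1 seed, and miR-27a-3p and miR-27b-3p share another, whereas the arms of miR-219a and miR-338 have 4 different seeds.
miR-219a-5p: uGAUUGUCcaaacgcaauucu
miR-219a-2-3p: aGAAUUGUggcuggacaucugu
miR-338-3p: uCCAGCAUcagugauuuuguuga
miR-338-5p: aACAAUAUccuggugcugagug
miR-29a-3p: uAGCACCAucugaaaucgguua
miR-29b-3p: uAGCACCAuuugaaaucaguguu
miR-29c-3p: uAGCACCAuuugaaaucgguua
miR-212-3p: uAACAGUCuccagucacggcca
miR-27a-3p: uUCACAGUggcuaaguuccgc
miR-27b-3p: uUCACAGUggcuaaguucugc

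The second set fell in infancy controls, and more than in adult controls. It includes the 2 let-7 guide strands with the largest falls, which share the let-7 seed, and miR-296-5p and miR-298-5p, whose genes lie within 10 kb of each other on rat chromosome 3.
let-7b-5p: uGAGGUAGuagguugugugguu
let-7c-5p: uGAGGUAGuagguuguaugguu
miR-1224: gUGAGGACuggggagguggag
miR-672-5p: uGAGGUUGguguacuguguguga
miR-296-5p: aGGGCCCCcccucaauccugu
miR-298-5p: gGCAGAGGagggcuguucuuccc
miR-134-5p: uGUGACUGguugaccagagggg
miR-449a-5p: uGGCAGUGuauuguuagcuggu

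Control libraries held from 309975 to 8165312 reads assigned to miRNAs (median 2019780.0), from 309975 to 1655679 in the infancy acute, 1180138 to 3881319 in the infancy latent, 507283 to 4026890 in the adult acute and 450644 to 8165312 in the adult latent group. Levels are given as CPM (read counts relative to the library total, scaled by TMM). miRNAs abundant in hippocampal neurons were present in every group: the group median was 7384 to 25200 CPM for miR-124-3p, 190000 to 419900 for miR-9a-5p, 29770 to 46600 for miR-128-3p and 2053 to 4298 for miR-138-5p. 1 infancy acute library (replicate 2), also the shallowest, stood apart with a summed level of 7 choroid plexus and ependyma miRNAs of 13720 CPM against a group median of 1383, and results that rest on it are also given without it.

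Acute and latent libraries were deposited as separate tables with separate library series, and the number of calls between them was large at both onset ages. From acute to latent, 235 of 380 tested miRNAs (61.8%) changed in infancy controls and 208 (54.7%) changed in adult controls, at an adjusted p under 0.05 with edgeR's quasi-likelihood test. Within an arm, 6 days of life and the difference between the tables cannot be told apart. The maturation contrast therefore subtracts the adult change from the infancy change, and it is a value on the log2 scale. It removes a table difference only as far as that difference is equal at both onset ages, and it holds any change over the same 6 days of adult life with the opposite sign, neither of which was tested.

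By the contrast, 52 of 380 miRNAs (13.7%) differed, 18 of them higher (4.74%) and 34 lower (8.95%). The median over all 380 miRNAs was -0.11. This split depended on the processing: 47 were higher and 13 lower with upper quartile scaling, which put the median of all miRNAs at 0.13, 18 were higher and 19 lower with library totals alone, and 26 were higher and 15 lower in a fit of control and SE rats together, which changes both the scaling and the estimate of the spread. All 18 higher calls were also called under DESeq2 size factors, upper quartile scaling and library totals, whereas 13 of the 34 lower calls were, and no call changed sign. The lower calls that held under all 4 scalings were miR-1224, miR-193b-3p, miR-1188-5p, miR-544-3p, miR-296-5p, miR-877, miR-672-5p, miR-3085, miR-298-5p, miR-3099, miR-181d-5p, let-7b-5p and miR-134-5p.

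**Figure D1:**
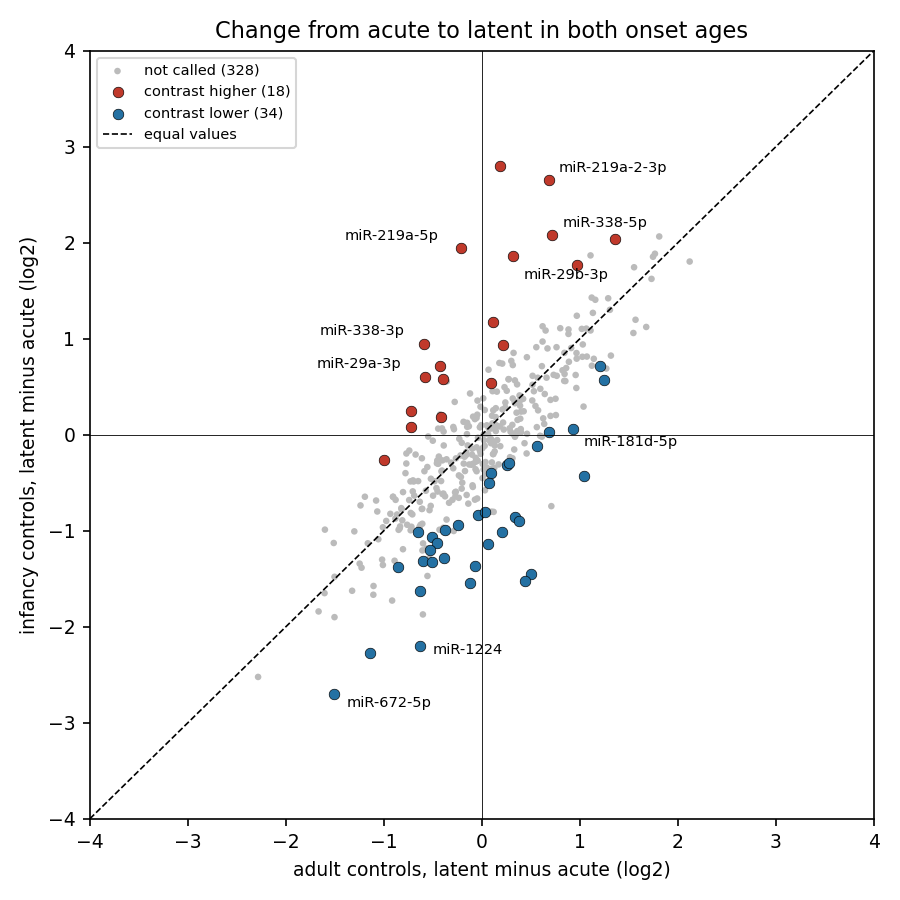
Change from the acute to the latent table (log2) in adult controls (x axis) and infancy controls (y axis) for 380 miRNAs. Red points are the 18 with a higher contrast, blue points the 34 with a lower contrast, grey points the other 328, and the dashed line marks equal change in both arms. miR-219a-2-3p and miR-338-5p lie above it and miR-1224 and miR-672-5p below it.

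Which arm moved differed between the calls. It is given with TMM alone, the split into rises and falls within an arm depended on the scaling, and each arm holds the table difference. For 11 of the 18 higher calls the infancy arm rose with no called fall in adults, for 3 (miR-338-3p, miR-29a-3p and miR-29c-3p) the infancy arm rose and the adult arm fell, and for 4 (miR-142-5p, miR-27a-3p, miR-330-5p and miR-132-5p) the adult arm fell with no called rise in infancy, where miR-330-5p fell as well but less (-0.26). For 27 of the 34 lower calls the infancy arm fell with no called rise in adults, for 1 (miR-351-5p) both moved apart, and for 6 (miR-9a-5p, miR-667-3p, miR-146a-5p, miR-342-3p, miR-181d-5p and miR-193b-3p) the adult arm rose with no called fall in infancy, where miR-9a-5p and miR-146a-5p rose as well but less.

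The oligodendrocyte miRNAs had the largest median contrast of the 24 lists, under TMM and under upper quartile scaling (2.01). The lists were chosen with earlier results of these data known, so this rank is no test. All 4 tested members of the list of 5 were called higher, where 4.74% of all miRNAs were. By RefSeq positions they are both arms of the miR-219a-2 and miR-338 hairpins, so they are not 4 separate observations. The untested member, miR-219a-1-3p, is named for another miR-219a hairpin, so reads of miR-219a-5p may not all come from miR-219a-2. Their median contrast was 1.75 against -0.11 over all miRNAs. Their summed level ran from 575.9 to 1804 CPM in infancy acute controls (median 1383) and from 4630 to 8607 in infancy latent controls (median 6402), without overlap. The adult groups ran from 4556 to 7923 and from 4880 to 14470 CPM.

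miR-219a-2-3p, the strand of the miR-219a-2 hairpin with most reads here, was measured at 304.8 to 1385 CPM in infancy acute controls (median 887) and at 3445 to 7130 in infancy latent controls (median 5284). It stood at 1888 to 4439 CPM in adult acute (median 3586) and at 3006 to 10020 in adult latent controls (median 5437). Every infancy latent rat was above every infancy acute rat, whereas the adult groups overlapped. The contrast was 1.97 ± 0.29 (± standard error throughout, 3.91-fold, adjusted p = 3.31e-06). At day 13 the infancy level was 4.17-fold below the adult level, and at day 19 it was 1.07-fold below, with a log2 difference of -0.09 and a 95% interval from -0.49 to 0.31.

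miR-219a-5p, placed by RefSeq on the opposite arm of that hairpin, had 36.07 to 146.9 CPM in infancy acute (median 50.45), 146.3 to 365.2 in infancy latent (median 230.6), 86.31 to 434.9 in adult acute (median 255.5) and 145.8 to 420.8 in adult latent controls (median 216.1). The infancy groups overlapped by a single acute rat just above the lowest latent rat. Its contrast was 2.15 ± 0.36 (adjusted p = 2.01e-05), the largest among miRNAs with a mean of at least 50 CPM in any group. The difference between infancy and adult controls went from -2.14 in the acute table to 0.01 in the latent table, with an interval from -0.47 to 0.48.

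miR-338-5p rose from 84.75 to 186.7 CPM (median 164.4) in infancy acute to 490.4 to 912.6 (median 618.7) in infancy latent controls, without overlap, while adult controls had medians of 690 and 1099 CPM. miR-338-3p, from the other strand of the hairpin, which lies within Aatk, had 100.8 to 194.2 CPM (median 167.8) and then 199.6 to 373.8 (median 295.3), against adult medians of 1885 and 1265 CPM. Both strands were called higher, with contrasts of 1.37 ± 0.20 (adjusted p = 3.31e-06) and 1.54 ± 0.21 (adjusted p = 1.05e-06). A difference from adults was still called for both in the latent table, where infancy controls were 1.75-fold lower in miR-338-5p and 4.44-fold lower in miR-338-3p, and no infancy latent rat reached the lowest adult latent rat in miR-338-3p.

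**Figure D2:**
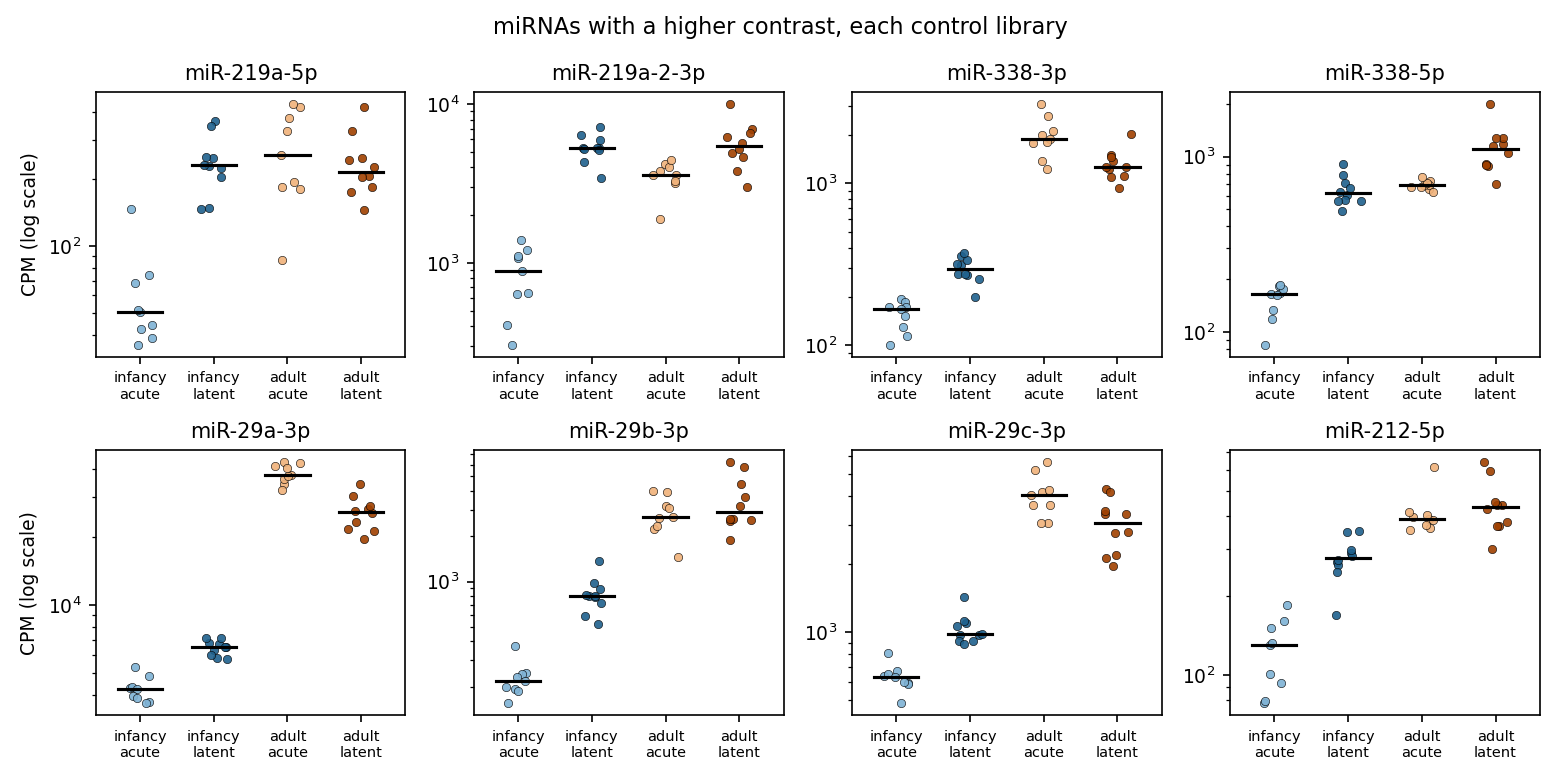
Level of 8 miRNAs in each control library (CPM, log scale), with 9 or 10 rats in each group and the group median as a line. miR-219a-2-3p in infancy latent rats lies in the range of adult rats, whereas miR-29a-3p in infancy latent rats (5756 to 7143) lies below every adult rat.

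The miR-29 family was called higher in all 3 members, where 4.74% of all miRNAs were, with a median contrast of 1.19. miR-29a-3p, the most abundant, was measured at 3681 to 5310 CPM in infancy acute (median 4259) and 5756 to 7143 in infancy latent controls (median 6520), without overlap. Adult controls had 32400 to 42880 CPM (median 37840) and 19530 to 34190 (median 25940), so the adult level fell while the infancy level rose. The contrast was 1.19 ± 0.12 (2.28-fold, adjusted p = 1.89e-09), the smallest p of the 380.

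miR-29b-3p, which is encoded beside miR-29a on chromosome 4 and beside miR-29c on chromosome 13, had 155.8 to 372.1 CPM (median 219) at day 13 and 518.6 to 1362 (median 803.5) at day 19, with adult medians of 2672 and 2897. Its contrast was 1.55 ± 0.28 (adjusted p = 9.54e-05). miR-29c-3p had medians of 636.8 and 979.1 CPM in infancy and 4058 and 3055 in adult controls, with a contrast of 1.14 ± 0.19 (adjusted p = 1.94e-05). In each of the 3 the infancy latent rats lay above all infancy acute rats and below all adult latent rats, as were 10.3% and 9.74% of the 380 miRNAs. The gap to adults in the latent table was 3.96-fold for miR-29a-3p, 4.29-fold for miR-29b-3p and 2.94-fold for miR-29c-3p, against 9.03-fold, 12.5-fold and 6.47-fold in the acute table. In the table of the chronic stage, not part of the contrast, infancy controls had 27990 to 38910 CPM of miR-29a-3p and adult controls 23130 to 38430, which overlap.

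miR-132 and miR-212, a pair transcribed together and induced by neuronal activity through CREB, were called higher in 3 of 4 strands. Their median contrast was 0.79, and 4.74% of all miRNAs were called higher. miR-212-5p had 78.2 to 184.7 CPM in infancy acute (median 129.7), 168.9 to 351.1 in infancy latent (median 277.8), 354.3 to 617 in adult acute (median 389.1) and 301.2 to 640.9 in adult latent controls (median 434). The infancy groups overlapped only at their edges. Its contrast was 1.07 ± 0.21 (adjusted p = 0.000292). miR-212-3p had a contrast of 0.98 ± 0.28 (adjusted p = 0.014), and without replicate 1 of the adult acute controls, where it stood at 950.2 CPM against a group median of 267.9, the contrast was 0.63 and remained called. miR-132-5p had 0.61 ± 0.21 (adjusted p = 0.0426), called through the adult arm, and miR-132-3p, the most abundant strand, 0.47 ± 0.23 (adjusted p = 0.191). The summed level of the 4 strands reached 7845 CPM in 1 adult acute rat, against a group median of 3804. The call of miR-132-5p, and so the count of 3 strands, was not examined without replicate 1 of that group.

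The 2 miR-23/27/24 clusters were positive in all 7 tested strands, with a median of 0.50, and 3 were called higher. With upper quartile scaling 6 were called, and without replicate 2 of the infancy acute controls all 7, with a median of 0.78. Over all 380 miRNAs 18 (4.74%) were called higher, 25 without that replicate and still more with upper quartile scaling, as given above. miR-27b-3p had 1749 to 3274 CPM in infancy acute (median 2316) and 3548 to 5558 in infancy latent controls (median 4482), without overlap, and adult medians of 6575 and 7626. Its contrast was 0.71 ± 0.15 (adjusted p = 0.000703). miR-27a-3p, with the same seed, had infancy medians of 464.1 and 564.1 CPM and adult medians of 1368 and 878.4, and its contrast of 0.80 ± 0.21 (adjusted p = 0.00578) was carried by the adult fall. miR-23b-3p had 0.44 ± 0.12 (adjusted p = 0.0114). Of 3 tested strands of miR-221 and miR-222, with a median of 0.30, miR-221-5p was called (0.80 ± 0.19, adjusted p = 0.00284), with 64.68 to 96.58 CPM at day 13 and 241.9 to 308.6 at day 19, while miR-221-3p, the more abundant arm of its hairpin, had 0.30 ± 0.18 (adjusted p = 0.276).

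Both arms of a hairpin come from 1 precursor and were counted as separate miRNAs. Of 95 hairpins with both arms tested, 61 had the same sign of the contrast in both arms. In 22 hairpins at least 1 arm was called, and 19 of these had the same sign. In 5 hairpins both arms were called, all 5 with the same sign: miR-338, miR-212 and miR-219a-2 higher, and miR-342 and miR-532 lower. Here miR-219a-5p is counted with miR-219a-2, where RefSeq places it.

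miR-10a-5p, a Hox cluster miRNA listed here as a sign of hindbrain or other tissue, had the largest positive contrast at a low level (2.62 ± 0.65, adjusted p = 0.00418). It had 0.705 to 13.35 CPM in infancy acute (median 2.601), 14.05 to 56.64 in infancy latent (median 30.61), 3.418 to 43.85 in adult acute (median 11.49) and 3.133 to 52.1 in adult latent controls (median 14.15). The infancy groups did not overlap, and the latent groups of both ages did. None of the other 5 tested miRNAs of that list was called, and the median of the 6 was -0.37.

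Among the lower calls, miR-1224, an intronic miRNA of Vwa5b2, had the most negative contrast of those called under all 4 scalings. It had 51.01 to 98.38 CPM in infancy acute (median 72.59) and 8.341 to 20.79 in infancy latent controls (median 17.05), with adult medians of 28.62 and 16.36. Every infancy acute rat was above every rat of the other 3 groups. The contrast was -1.57 ± 0.26 (adjusted p = 1.94e-05), and the 2.56-fold excess over adults at day 13 was no longer measured at day 19 (log2 difference -0.21, interval from -0.57 to 0.15).

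miR-672-5p, from an X-linked hairpin in Nexmif, had 186.7 to 317 CPM in infancy acute (median 235.7) and 21.37 to 56.81 in infancy latent controls (median 38.64). Adult controls had 55.34 to 111.3 (median 76.91) and 15.03 to 39.48 CPM (median 28.24). It fell in both arms, by 2.70 on the log2 scale in infancy and by 1.51 in adults, each without overlap, and the contrast was -1.20 ± 0.23 (adjusted p = 0.000211). The other arm of its hairpin had -0.14 ± 0.27.

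miR-296-5p and miR-298-5p, neighbours in the imprinted Gnas region in mouse, were both far above adult levels at both ages. miR-298-5p had 268.5 to 550.9 CPM at day 13 (median 399) and 42.75 to 110.7 at day 19 (median 73.95), against 16.84 to 37.6 and 5.07 to 15.91 in adults. miR-296-5p had 78.43 to 190.3 (median 108.2) and 40.56 to 92.15 CPM (median 49.26), against adult medians of 13.38 and 15.03. All infancy rats were above all adult rats of their table for both miRNAs, as in 15.8% of the 380 miRNAs in the acute and 12.1% in the latent table. The contrasts were -1.12 ± 0.26 (adjusted p = 0.00182) and -1.22 ± 0.31 (adjusted p = 0.00431), and the excess over adults went from 15.7-fold to 7.22-fold and from 8.91-fold to 3.83-fold.

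miR-193b-3p and miR-3085 followed with contrasts of -1.47 ± 0.33 (adjusted p = 0.00133) and -1.19 ± 0.30 (adjusted p = 0.00431). miR-193b-3p had 37.84 to 78.92 CPM in infancy acute, 26.39 to 55.06 in infancy latent, 5.027 to 32.76 in adult acute and 17.91 to 55.77 in adult latent controls, so that the infancy groups overlapped and the adult level rose. miR-3085 had infancy medians of 143.5 and 75.25 CPM and adult medians of 44.2 and 58.75. miR-3099 had infancy medians of 334.8 and 114.9 CPM, without overlap, and adult medians of 127.3 and 84.95, and its contrast (adjusted p = 0.000129) had an interval from -1.37 to -0.63.

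**Figure D3:**
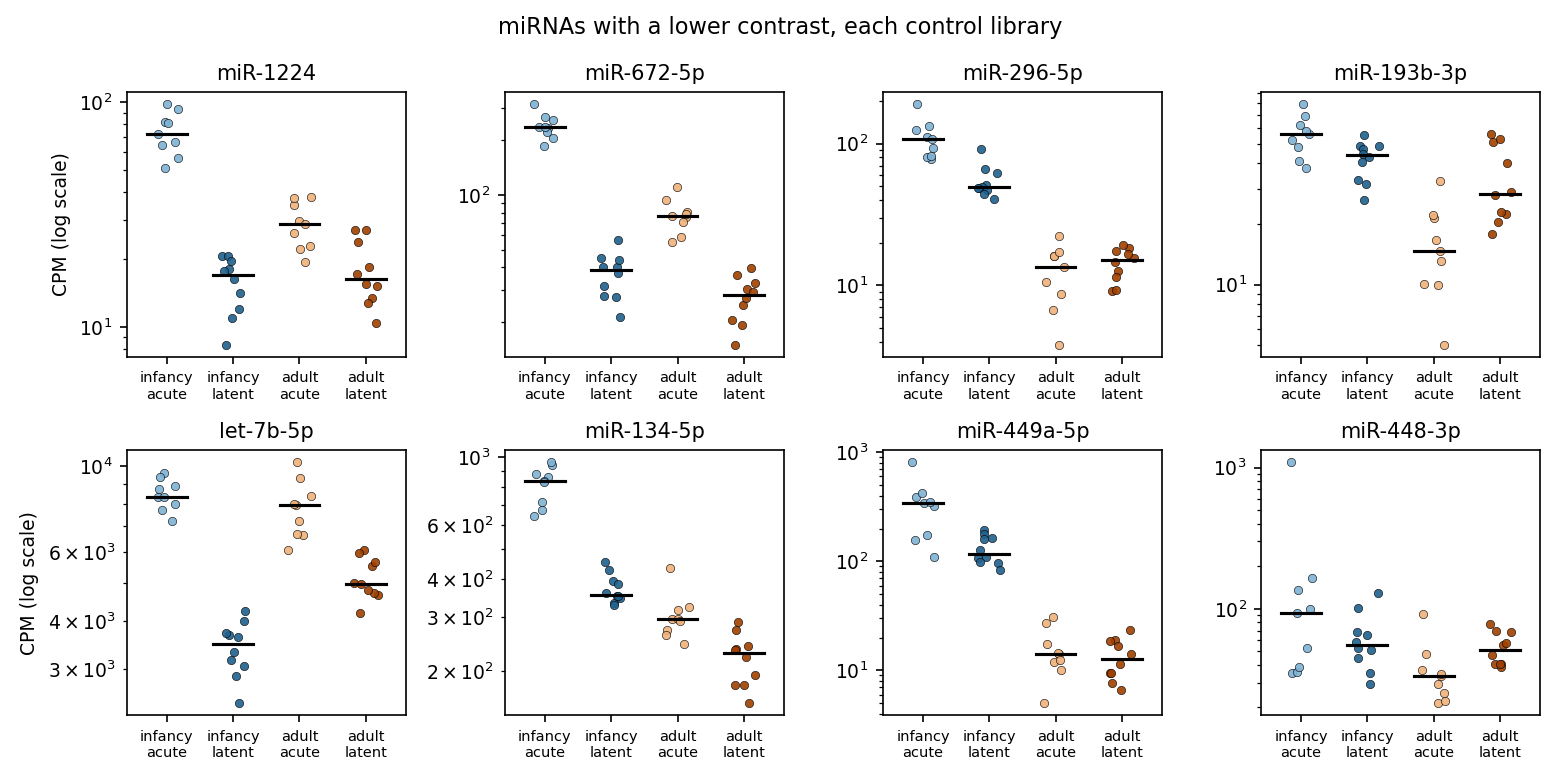
Level of 8 miRNAs with a lower contrast in each control library (CPM, log scale), with 9 or 10 rats in each group and the group median as a line. miR-1224 is highest in infancy acute rats (51.01 to 98.38) and low in the other groups, let-7b-5p has its lowest median in infancy latent rats (3481), and 1 infancy acute rat stands at 1090 CPM of miR-448-3p.

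The let-7 guide strands, which rise as neural progenitors differentiate, had no call above the adult arm. Of 9 tested, 3 were called lower (let-7b-5p, let-7c-5p and let-7e-5p), none higher, and the median contrast was -0.28. Over all miRNAs 8.95% were called lower. let-7b-5p had 7216 to 9628 CPM in infancy acute (median 8355), 2459 to 4249 in infancy latent (median 3481), 6085 to 10240 in adult acute (median 7954) and 4201 to 6084 in adult latent controls (median 4989). In both arms the latent rats lay below all acute rats. The contrast was -0.71 ± 0.14 (adjusted p = 0.00022), and the age gap opened, from 0.11 (interval from -0.09 to 0.31) in the acute to -0.59 in the latent table. let-7c-5p had -0.56 ± 0.13 (adjusted p = 0.00312) with infancy medians of 27320 and 12850 CPM, and let-7e-5p -0.36 ± 0.13 (adjusted p = 0.046). Under upper quartile scaling only let-7b-5p of the 3 was called and the median of the 9 was -0.05.

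In the clusters tied to cell proliferation few strands were called in controls. With TMM each tested strand was negative, as were 228 of all 380 miRNAs. The miR-17~92 cluster and its paralogs had 9 of 9 strands negative, with a median of -0.37, and miR-17-5p was called (-0.62 ± 0.20, adjusted p = 0.0275), with 461 to 837.5 CPM at day 13 and 266.5 to 380.3 at day 19. The miR-322 and miR-503 cluster of the X chromosome had 9 of 9 negative with a median of -0.18, and miR-351-5p was called (-0.57 ± 0.14, adjusted p = 0.00393). Without replicate 2 of the infancy acute controls 3 of the miR-17~92 strands were called lower, where 40 of all 380 miRNAs were. In that fit 1 of the miR-322 strands was positive. Neither call held under upper quartile scaling, where the medians were -0.13 and 0.06. The miR-17~92 group stayed above adult levels at day 19 in 8 of 9 strands and the miR-322 group in 9 of 9, by the called age gap, where 27.1% of all miRNAs were called higher (133 of 380 with upper quartile scaling and 149 with library totals). By the same contrast in SE rats, 8 of 9 miR-17~92 strands were called lower, with a median of -0.88. This count was 7 with upper quartile scaling and 9 with library totals. None of the 9 miR-322 strands was called in SE rats (median -0.15), where 26 of all 380 miRNAs were called lower.

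The imprinted miR-379 to miR-410 cluster of chromosome 6, expressed from the maternal allele in neurons, had 51 tested strands, of which 3 were called lower and none higher, with a median of -0.15. Over all miRNAs 8.95% were called lower and 4.74% higher. miR-134-5p, which limits dendritic spine size, had 642.3 to 964.4 CPM in infancy acute (median 834.7), 330.2 to 456.6 in infancy latent (median 356.1), 245.6 to 435.8 in adult acute (median 295) and 157.3 to 290.2 in adult latent controls (median 229). The infancy groups did not overlap, and the contrast was -0.67 ± 0.16 (adjusted p = 0.0024). miR-544-3p had -1.28 ± 0.36 (adjusted p = 0.0137) at medians of 4.194 to 23.27 CPM, and miR-667-3p was the third. Without replicate 2 of the infancy acute controls 7 of the 51 were called lower, where 40 of all 380 miRNAs were. In SE rats 5 strands were called higher and none lower, 39 of 51 were positive and the median was 0.19 (0.11 to 0.19 over the 4 scalings), against 0.08 over all miRNAs in those rats. Of all 380 miRNAs, 29 (7.63%) were called higher and 26 lower in SE rats, and 210 were positive. With upper quartile scaling the median of the cluster in controls was 0.07, with 4 strands called higher and 2 lower. With that scaling more of all miRNAs were called higher and fewer lower than with TMM, as given above. Of the 20 tested strands of the neighbouring miR-127 and miR-136 region none was called, and their median was -0.11, against 0.11 and 2 called higher with upper quartile scaling.

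None of the 11 neuron-enriched miRNAs was called by the contrast, with a median of 0.01 (1 called higher and a median of 0.23 with upper quartile scaling). They had a median change of 0.61 in the infancy arm and 0.60 in the adult arm, where 8 and 7 of them were called higher and 2 and 0 lower. Over all miRNAs 25.5% were called higher and 36.3% lower in the infancy arm, and 25.3% and 29.5% in the adult arm. With library totals alone 4 and 3 of the 11 were called higher and 3 and 1 lower, where 60 and 53 of all 380 miRNAs were called higher and 204 and 187 lower. miR-124-3p had infancy medians of 7384 and 19850 CPM and adult medians of 13900 and 25200, and its contrast was 0.27 ± 0.24 (interval from -0.20 to 0.74). miR-128-3p had 0.10 ± 0.18 (interval from -0.27 to 0.46).

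miR-9a-5p, the most abundant miRNA in these libraries, was called at the edge of the threshold (-0.49 ± 0.17, adjusted p = 0.0494), with infancy medians of 250700 and 419900 CPM and adult medians of 190000 and 389000. It rose in both arms, more in adults, and the call was lost in 22 of 38 fits that each left out 1 library and under 7 of 10 alternatives. Its other strand, miR-9a-3p, had -0.18 ± 0.20 (adjusted p = 0.594), and the median of both was -0.33. miR-181d-5p was called (-0.88 ± 0.17, adjusted p = 0.000292) with infancy medians of 801 and 848.7 CPM and adult medians of 249.7 and 434.9. It did not change detectably in infancy (0.06) and rose in adults by 0.93, and it was the single call among 8 miR-181 strands (median -0.14, or 0.10 with upper quartile scaling), while miR-181c-5p, encoded beside it, had -0.22 ± 0.19 (adjusted p = 0.47).

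Other lists had 1 call or none. miR-15b-5p was the single call among 5 miR-15 and miR-16 family members with a median of -0.07 (-0.52 ± 0.16, adjusted p = 0.0182), and it did not hold under upper quartile scaling or library totals. No member was called among the 5 miR-30, 5 miR-99/100 and miR-125, 2 miR-130 and miR-301 or 3 miR-344 strands tested, with medians of 0.15, -0.01, 0.21 and 0.41. Of the 5 vessel wall, 3 erythroid and 2 miR-200 and miR-183 miRNAs tested none was called either, with medians of 0.03, 0.31 and 0.60. With upper quartile scaling 1 member each of the miR-30, miR-130 and vessel wall lists was called higher. Without replicate 2 of the infancy acute controls 1 miR-130 list member was called higher, and the miR-15 list had a median of 0.02.

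Choroid plexus and ependyma miRNAs were called lower in controls in 3 of 7 tested (of 12 listed), where 8.95% of all miRNAs were. Their median was -0.92. In controls this count and this median rested on 1 library. Without replicate 2 of the infancy acute controls 1 of 7 was called lower, 4 of 7 were positive and the median was 0.19. Without it 40 of all 380 miRNAs were called lower. With upper quartile scaling of all controls none was called and the median was -0.58. In SE rats, which do not include that library, all 7 were negative and 1 was called lower, where 26 of all 380 miRNAs were. The median there was -0.98 (-1.07 with library totals, -0.92 with upper quartile scaling), against 0.08 over all miRNAs. The summed level of the 7 ran from 983.8 to 13720 CPM in infancy acute, 885.1 to 1263 in infancy latent, 1205 to 2854 in adult acute and 1197 to 1622 in adult latent controls. miR-448-3p and miR-1298, both within Htr2c, the serotonin receptor gene expressed in choroid plexus, had the largest negative contrasts (-1.97 ± 0.63, adjusted p = 0.0289, and -1.96 ± 0.67, adjusted p = 0.0441). In replicate 2 of the infancy acute controls they stood at 1090 and 2931 CPM, against 34.9 to 164.4 and 66.96 to 211.9 in the other 8 rats. Without that library the contrasts were -0.78 (adjusted p = 0.191) and -0.31 (adjusted p = 0.628), and 65 miRNAs were called in all, 25 higher and 40 lower, of which 50 were among the 52.

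miR-449a-5p, a miRNA of multiciliated cells such as ependyma, differed from these. It had 110.7 to 809.7 CPM in infancy acute (median 339.7), 83.54 to 194.4 in infancy latent (median 117.8), 5.027 to 30.76 in adult acute (median 14.04) and 6.63 to 23.34 in adult latent controls (median 12.81). All infancy rats were above all adult rats of their table, by 22.6-fold and then 9.23-fold. The contrast was -1.29 ± 0.40 (adjusted p = 0.0246) and -1.05 (adjusted p = 0.0398) without replicate 2 of the infancy acute controls, and upper quartile scaling put its adjusted p at 0.0558.

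The microglia and myeloid list had 1 call each way among 6 tested. miR-142-5p, of blood-derived and microglial cells, had a contrast of 0.96 ± 0.32 (adjusted p = 0.0359) at infancy medians of 44.07 and 42.07 CPM and adult medians of 66.08 and 39.5, and it lost the call in 12 of 38 fits without 1 library. miR-146a-5p, induced by NF-kB signalling, had -0.68 ± 0.21 (adjusted p = 0.021; not called with upper quartile scaling or library totals), with infancy medians of 264.1 and 335.2 CPM and adult medians of 135.7 and 296.9. The median of the list was 0.17, and its summed level reached at most 788.5 CPM in infancy acute controls (median 722.5) and ran from 795.6 to 1026 in infancy latent, 805.2 to 1292 in adult acute and 872.5 to 1432 in adult latent controls.

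The contrast is the difference between the age gap in the latent and in the acute table, and both gaps compare groups within 1 table. Infancy and adult controls differed in 261 of 380 miRNAs (68.7%) in the acute table and in 232 (61.1%) in the latent table. All 18 higher calls were below the adult level in the acute table, and the gap was smaller in the latent table for all 18, with a median of -1.78 and then -0.74. For 4 of them (miR-219a-5p, miR-219a-2-3p, miR-142-5p and miR-10a-5p) no difference from adults was called in the latent table. Of the 34 lower calls, 32 were above the adult level in the acute table, 32 had a smaller gap in the latent table, the median went from 1.45 to 0.35, and 15 were not called at that stage. Since the calls were chosen by the difference of the same gaps, these counts describe the calls and are no separate test.

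**Figure D4:**
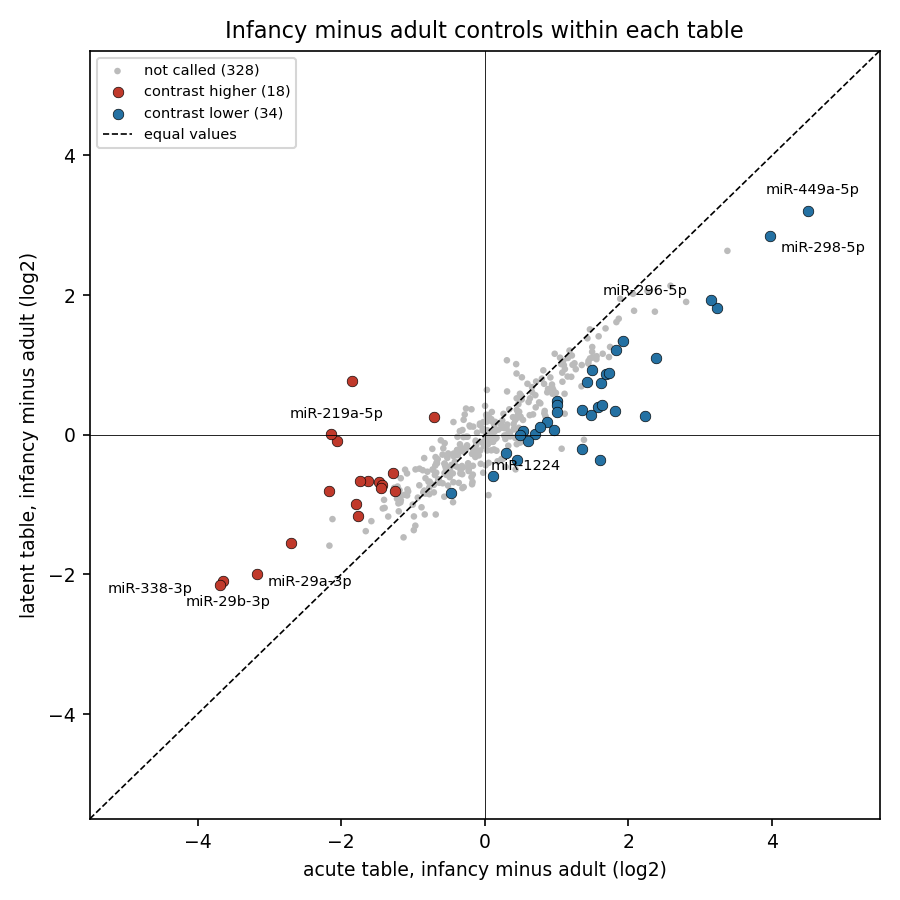
Difference between infancy and adult controls (log2) in the acute table (x axis) and the latent table (y axis) for 380 miRNAs, coloured by the contrast, with a dashed line for equal gaps. Higher calls start below 0 and lie nearer to 0 in the latent table, where miR-219a-5p is at 0.01, while miR-29a-3p is at -1.99 and miR-449a-5p at 3.21.

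The same contrast was computed in 37 SE rats, which share no library with the controls and received pilocarpine after LiCl and then paraldehyde, given to reduce mortality. It also holds any change of the response to SE between the stages that differs with onset age. The SE libraries are in the same acute and latent tables as the controls, so a table difference that is unequal between the onset ages would enter both contrasts. In SE rats 55 of 380 miRNAs (14.5%) were called, 29 higher and 26 lower, or 23 and 33 with library totals. Of the 52 control calls, 43 (82.7%) had the same sign in SE rats, against 64.7% of all 380 miRNAs, and 17 were called in both with the same sign, which is 32.7% of the control calls and 30.9% of the SE calls. No control call was called with the opposite sign. Calls have contrasts that are large for their spread, unlike most of the 380 miRNAs, so the shares with the same sign are no test of the contrast.

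In SE rats 3 of the 4 oligodendrocyte miRNAs and all 3 miR-29 members were called higher, with medians of 1.48 and 1.15, where 7.63% of all miRNAs were. The contrast was 1.64 ± 0.42 for miR-219a-5p (adjusted p = 0.0046), 1.65 ± 0.35 for miR-219a-2-3p (adjusted p = 0.00085), 1.31 ± 0.31 for miR-338-5p (adjusted p = 0.0024) and 0.85 ± 0.31 for miR-338-3p (adjusted p = 0.055). It was 0.98 ± 0.13 for miR-29a-3p, 1.22 ± 0.24 for miR-29b-3p and 1.15 ± 0.18 for miR-29c-3p, all 3 called. Fewer strands of the other groups with higher calls in controls were called in SE rats. These were 0 of 4 for miR-132 and miR-212, 1 of 7 for miR-23/27/24 and 0 of 3 for miR-221 and miR-222. Their medians were 0.48, 0.40 and 0.41. Among the lower calls, miR-672-5p (-1.49 ± 0.31), let-7b-5p (-0.64 ± 0.22), miR-449a-5p (-1.64 ± 0.49) and miR-17-5p (-0.84 ± 0.22) were called in SE rats too. miR-1224 had 0.12 ± 0.39, miR-134-5p 0.19 ± 0.15 and miR-10a-5p 0.31 ± 0.65 in SE rats, none of them called. The difference between the contrasts of control and SE rats was not tested.

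**Figure D5:**
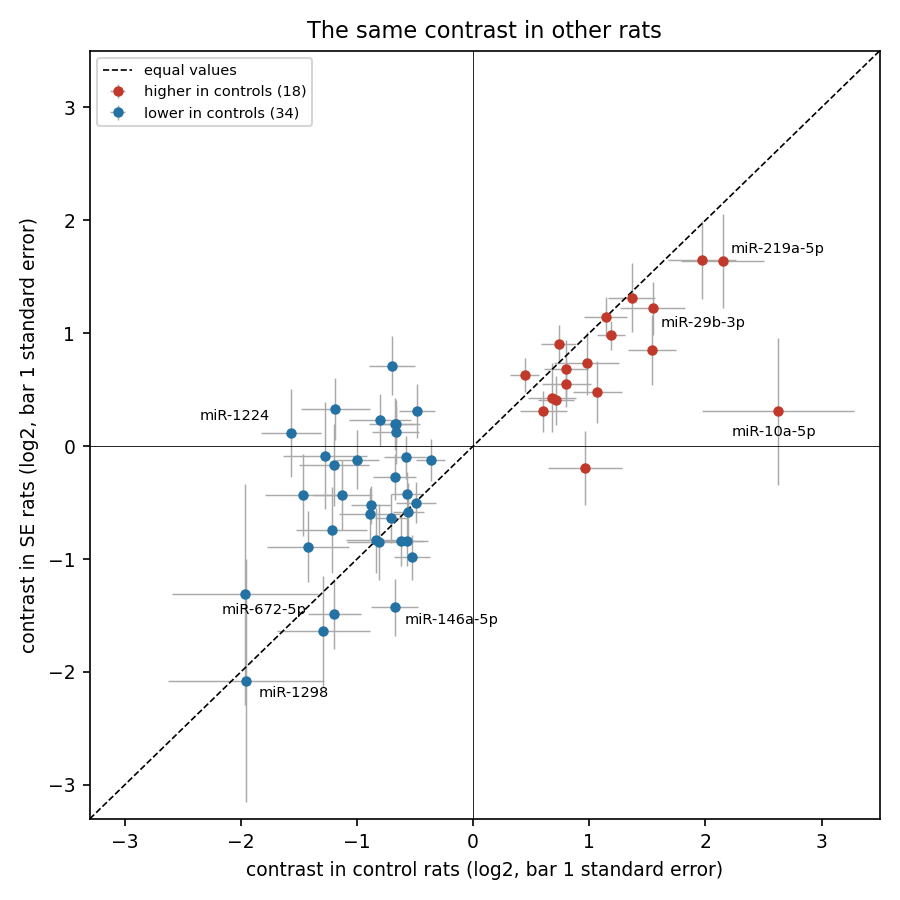
The maturation contrast (log2) of the 52 control calls in control rats (x axis) and in SE rats (y axis), with bars of 1 standard error. Of the 18 higher calls, miR-142-5p lies below 0 in SE rats and the others above it, the 34 lower calls spread from -2.08 to 0.71, and miR-1224 lies near 0.

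Base composition of the calls was compared with that of all tested miRNAs, since ligation and amplification can favour some sequences. A RefSeq sequence was found for 352 of 380 miRNAs (92.6%). The median GC content was 45.5% in the 18 higher calls, 50% in the 34 lower calls and 47.6% over all. In the 88 miRNAs with the highest GC content (54.5% to 77.3%) the median contrast was -0.27, against -0.08 to -0.03 in the 3 other groups of 88, and the part of base composition in the calls was not tested.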

How the data were processed

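Hippocampal small RNA of 38 control and 37 SE rats of the acute and latent stages was analysed. The authors deposited 2 kinds of values: raw counts per mature miRNA, and a normalized signal, which equals the counts divided by 1 size factor per library. Only the counts were used for the results. The workflow stated for the rat libraries is the NEXTflex kit, adapter trimming with Kraken and Cutadapt, and assignment to miRBase with seqBuster; it is described for the chronic table, and the submitters' notes name DESeq2 1.16.1. Of the labelled samples, 114 of 120 have counts.

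Acute and latent tables were joined by miRNA name (608 shared), and 380 miRNAs with over 500 reads in each table were kept. The 4 control groups were fitted with edgeR 4.0.16 (R 4.3.3, TMM, quasi-likelihood F test), with p-values adjusted by Benjamini-Hochberg over all 380. The contrast is (infancy latent minus infancy acute) minus (adult latent minus adult acute), and SE rats were fitted separately. Standard errors are the size of the log2 value divided by the square root of F. The p-values set each difference against the spread between rats within groups. They do not cover the difference between the tables, which has no replicate. Alternatives used DESeq2 1.42.0 and limma 3.58.1, other scalings and filters, a block and leaving out libraries. The fit recovered known changes in simulated counts, set in both directions in the infancy latent group alone. The simulation held no difference between the tables, so it did not test how far the contrast removes one. Figures used Python 3.11.15 and matplotlib 3.10.9. The libraries, lists and named miRNAs were chosen with earlier results of these data known. Named are the 8 largest contrasts each way among calls with at least 50 CPM in a group, at most 2 miRNAs per list (those of smallest p, 24 lists) and the 5 most abundant in infancy; other calls named to complete a list or count were chosen after their values were seen. Depth limits low miRNAs most: under about 10 CPM a shallow library holds few reads. Sequences and gene positions come from RefSeq (GRCr8), matched by name.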

Additional observations from a re-analysis of the deposited data

Results flagged for a closer look

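Of 236 sets of values (59 named miRNAs in 4 groups of 9 or 10 rats), 25 (10.6%) held 1 rat that stood far from the others of its group on the log2 CPM scale; chance gives about 1 in 20. They fell on 11 libraries. In replicate 2 of the infancy acute controls miR-448-3p was high at 10.09 and miR-1298 at 11.52, and miR-146a-5p was low at 6.48. In replicate 10 of that group miR-137-5p was low at 1.81. In replicate 10 of the infancy latent controls miR-29c-3p (10.49), miR-544-3p (4.58), miR-30e-5p (14.16) and miR-142-5p (6.47) were high and miR-212-5p (7.41) was low, in replicate 7 miR-130a-3p was low at 7.87, and in replicate 4 miR-145-5p was high at 9.66.

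In replicate 1 of the adult acute controls miR-212-5p (9.27), miR-212-3p (9.89) and miR-134-5p (8.77) were high and miR-219a-2-3p (10.88) was low. In replicate 4 of that group miR-9a-5p (16.59), miR-9a-3p (13.79) and miR-27b-3p (12.09) were low and miR-145-5p (9.04) was high, and in replicate 9 miR-182 was high at 6.56. Among adult latent controls miR-128-3p (16.55) and miR-129-5p (12.37) were high and miR-344a-3p (6.86) low in replicate 8, miR-9a-3p (15.64) was high in replicate 2 and miR-183-5p (6.03) in replicate 10.

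The change from acute to latent differed between the onset ages in 32 named miRNAs, by the interaction test of the maturation contrast. It was higher in infancy for miR-10a-5p (2.62), miR-219a-5p (2.15), miR-219a-2-3p (1.97), miR-29b-3p (1.55), miR-338-3p (1.54), miR-338-5p (1.37), miR-29a-3p (1.19), miR-29c-3p (1.14), miR-212-5p (1.07), miR-212-3p (0.98), miR-142-5p (0.96), miR-27a-3p (0.80), miR-221-5p (0.80) and miR-27b-3p (0.71). It was lower for miR-448-3p (-1.97), miR-1298 (-1.96), miR-1224 (-1.57), miR-193b-3p (-1.47), miR-449a-5p (-1.29), miR-544-3p (-1.28), miR-296-5p (-1.22), miR-672-5p (-1.20), miR-3085 (-1.19), miR-181d-5p (-0.88), let-7b-5p (-0.71), miR-146a-5p (-0.68), miR-134-5p (-0.67), miR-17-5p (-0.62), miR-351-5p (-0.57), let-7c-5p (-0.56), miR-15b-5p (-0.52) and miR-9a-5p (-0.49).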

How the results depend on the processing

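The count of 52 calls stayed between 37 and 72 under 9 alternatives of scaling, test, filter and samples, and the counts of both arms and both age gaps stayed within 1.5 times. Leaving out 1 library at a time gave 42 to 65 calls in controls and 48 to 68 in SE rats. With the library number as a replicate block, 16 miRNAs were called (9 higher, 7 lower), all 16 among the 52. These numbers do not pair rats: same-numbered libraries correlated above 0.1 in 3 of 9 infancy and 0 of 5 adult pairs, and 0 correlated best with their own number. Without a minimum of reads, 42 of 608 miRNAs were called, 22 higher and 20 lower. Among named miRNAs, those whose sign changed had no call in any of these fits: under upper quartile scaling miR-9a-3p (0.04), miR-130a-3p (0.04) and miR-145-5p (0.09), under the block miR-99b-5p (-0.02), miR-130a-3p (0.15), miR-145-5p (0.21), miR-183-5p (-0.34) and miR-182 (-0.26), and without replicate 9 of the adult acute controls miR-183-5p (-0.12, range over all leave-outs to 0.99) and miR-182 (-0.04, to 0.57). miR-1298 lost its call under 9 of 10 alternatives and in 18 of 38 fits without 1 library, miR-448-3p under 6 of 10, while miR-219a-5p, miR-219a-2-3p, miR-338-3p, miR-338-5p, the 3 miR-29 members, miR-1224, miR-672-5p, let-7b-5p and miR-181d-5p were called under all 10 and in all 38. Depth limits miRNAs under about 10 CPM, where the shallowest library of 309975 reads holds few counts.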
